A study of Arabidopsis thaliana x Arabidopsis lyrata and Arabidopsis thaliana x Arabidopsis halleri with 18 samples.

Results

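In F1 hybrids labelled as *Arabidopsis thaliana* Col-0 crossed with *Arabidopsis halleri* (the Colxhalleri plants), 47 genes had a mean allele balance that lay on the same side of the standard plants after 1 h of cold and after 1 h of dehydration. They were chosen from the plants' own values. For each plant, second-allele values were divided by thaliana-allele values and put on a log2 scale (the ratio), and a gene was kept when its mean ratio in cold plants and in dehydrated plants each differed from the standard mean by at least 1.5 in the same direction, when no treated plant overlapped a standard plant, and when the mean allele sum, less the 1 added to each allele, was at least 20 in each of the 3 groups. Of 16419 genes in the files, 7657 reached that sum and 47 of them (0.614%) met the rule. In 30 genes (0.392%) the balance moved toward the second allele, and in 17 genes (0.222%) it moved toward the thaliana allele. The size of this lean depended on the settings. The counts were 34 and 31 with 0.5 taken off each allele, and 54 and 52 at a lower threshold. Only without standard replicate 3 did more genes move toward the thaliana allele (31 and 41). Because the plants' own values chose the genes, every Colxhalleri value of cold or dehydration against standard is given as a description and without a test. Cold and dehydration were also set against the same 3 standard plants, so the 2 shifts of a gene are not independent of each other.

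In an F1 hybrid both parental genomes share a nucleus and the same set of transcription factors. A difference in transcript level between the alleles of a gene therefore reflects sequence or chromatin differences carried by the alleles themselves, called cis-regulatory differences, while regulators that diffuse through the cell act on both alleles. An allele ratio that depends on the treatment is the usual mark of a cis-regulatory difference that acts under some conditions and not others. *A. thaliana* is an annual selfing species, and *A. halleri* and *A. lyrata* are perennial outcrossing relatives.

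Each library was made from the aerial part of 1 F1 plant, and each group held 3 plants. Colxhalleri plants carried the ecotype label Col-0xh2.2 and were 4 weeks old. Standard plants were kept at 22 °C, cold plants spent 1 h at 4 °C in dim light, and dehydrated plants were lifted from the agar and kept for 1 h at 22 °C in dim light. A second set of 9 plants under the same treatments and of the same age was labelled Col-0 crossed with *Arabidopsis lyrata* MN47 (the ColxMN47 plants). Those plants took no part in choosing the genes, and every test below was made in them. All plants were hybrids, and parental plants were not analysed here. Temperature or water loss, dim light and, for dehydration, handling came together and cannot be told apart, and the standard samples were described as leaves while the other treatments were not. The column of the non-thaliana allele was headed Aly in the Colxhalleri files and Aha in the ColxMN47 files, against the species in the labels. It is called the second allele here, and the hybrids are named by their labels. In such bulk samples, fewer cells of a type and less RNA per cell cannot be told apart.

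Library totals were scaled to a near-equal value before deposit, between 1491266 and 1498430 once the added 1s were taken off. All 3 libraries of dehydrated Colxhalleri plants had been scaled up, from implied totals between 9.28e+05 and 1.2e+06, and 2 of dehydrated ColxMN47 plants had been too. Colxhalleri standard replicate 1 correlated least with its group among Colxhalleri plants (mean r 0.834), and ColxMN47 standard replicate 1 least of all (0.823). In ColxMN47 dehydration replicate 2 the thaliana allele took 61.03% of the total, against 49.14% to 51.07% in the other 17 libraries. Leaf photosynthesis genes were abundant in all plants, with sums of 15 genes between 44609 and 188212, while 9 root markers summed to between 1 and 92 and 9 floral organ markers to between 0 and 42. Some of these sums moved with treatment in Colxhalleri plants: the photosynthesis sum was 114647 to 149747 in standard plants, 73009 to 97288 in cold and 110204 to 177103 in dehydration, and the floral sum 17 to 42, 1 to 13 and 1 to 4. Their part in the allele ratios was not tested.

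Among the genes with the largest shifts, NIT2 encodes nitrilase 2, an enzyme that can turn indole-3-acetonitrile into auxin, AT2G03390 encodes a uvrB/uvrC motif-containing protein, SRS encodes a seryl-tRNA synthetase, and AT1G21930 encodes an uncharacterized protein. Their *A. thaliana* promoters are shown because these 4 genes had the largest shifts toward the second allele, taking for each gene the smaller of its 2 shifts. The sequences run from 250 bases before to 50 bases after the annotated start in RefSeq TAIR10.1, 5′ to 3′ on the gene's strand. NIT2 is at chr3:15982949-15983248 (plus strand), AT1G21930 at chr1:7712569-7712868 (plus strand), AT2G03390 at chr2:1032669-1032968 (minus strand) and SRS at chr1:4003507-4003806 (plus strand). Capitals mark a G-box (CACGTG) that overlaps an abscisic acid response core (ACGTGG).
NIT2: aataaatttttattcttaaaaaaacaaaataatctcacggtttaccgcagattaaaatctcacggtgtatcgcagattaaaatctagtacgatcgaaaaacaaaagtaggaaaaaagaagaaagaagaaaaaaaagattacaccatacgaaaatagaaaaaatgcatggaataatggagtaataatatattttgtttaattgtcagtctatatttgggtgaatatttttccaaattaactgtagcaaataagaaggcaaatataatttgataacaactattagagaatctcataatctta
AT1G21930: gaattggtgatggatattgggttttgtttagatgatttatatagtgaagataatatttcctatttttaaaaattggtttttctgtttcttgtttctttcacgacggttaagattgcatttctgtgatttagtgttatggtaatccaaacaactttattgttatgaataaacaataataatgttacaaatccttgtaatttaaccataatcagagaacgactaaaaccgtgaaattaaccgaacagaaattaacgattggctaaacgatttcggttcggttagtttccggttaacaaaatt
AT2G03390: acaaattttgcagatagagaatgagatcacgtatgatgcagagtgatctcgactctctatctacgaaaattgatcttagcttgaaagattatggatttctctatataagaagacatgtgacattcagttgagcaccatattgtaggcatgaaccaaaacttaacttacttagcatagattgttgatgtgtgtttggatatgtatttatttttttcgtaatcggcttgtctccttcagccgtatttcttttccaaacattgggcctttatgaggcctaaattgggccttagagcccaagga
SRS: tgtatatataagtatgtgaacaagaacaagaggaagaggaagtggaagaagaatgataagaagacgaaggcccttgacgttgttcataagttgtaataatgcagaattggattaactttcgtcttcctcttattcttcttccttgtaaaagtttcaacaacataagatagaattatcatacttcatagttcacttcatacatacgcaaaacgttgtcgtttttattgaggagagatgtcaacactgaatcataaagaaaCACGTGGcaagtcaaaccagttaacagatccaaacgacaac
Of these 4 windows, SRS alone held any of the motifs searched on both strands. Its 2 overlapping motifs begin 9 and 10 bases after the annotated start, not before it. The promoters of the second alleles were not analysed here.

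Each motif was counted in the promoters of all members and of all annotated protein-coding genes on the nuclear chromosomes. The G-box CACGTG was in 4 of 47 member promoters (8.51%) and in 7.68% of 27443 promoters. ACGTGG, which can overlap the G-box, was in 5 (10.6%) and in 9.85% of all. ACCGAC or GCCGAC, the dehydration and cold response element, was in 3 (6.38%) and in 8.72%. The evening element AAATATCT, a clock-related motif, was in 5 (10.6%) and in 5.65%. None of these counts was tested.

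AT2G03390 went from a second allele near 0 to near balance. In Colxhalleri plants its second allele stood at 8, 2 and 3 in the standard plants (deposited values less 1), at 102, 112 and 143 in cold plants and at 108, 66 and 96 in dehydrated plants. The thaliana allele stood at 118, 123 and 153, then 67, 76 and 81, then 117, 109 and 121. The second allele was thus far higher in every treated plant, while the thaliana allele overlapped between standard and dehydrated plants and was lower in every cold plant. The mean log2 ratio was -4.79 ± 0.92 (SD, n = 3) in standard plants, 0.65 ± 0.14 in cold plants and -0.39 ± 0.30 in dehydrated plants.

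AT1G21930 followed the same form. The second allele was at 0, 0 and 1 in Colxhalleri standard plants, at 40, 134 and 75 in cold and at 67, 59 and 55 in dehydration. The thaliana allele was at 35, 13 and 43, then 23, 94 and 49, then 52, 34 and 39, so treated plants overlapped standard plants for that allele and not for the second. The ratio moved by 5.11 ± 0.40 (SE) in cold and 5.02 ± 0.41 in dehydration. With the second allele at or near 0 in standard plants, the size of these shifts depends on the 1 added to each allele before deposit.

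NIT2 differed mostly in its thaliana allele. That allele was at 611, 249 and 463 in Colxhalleri standard plants, 77, 5 and 9 in cold plants and 63, 26 and 3 in dehydrated plants. The second allele was at 44, 72 and 80, then 100, 73 and 163, then 156, 111 and 156. All 6 treated plants had less of the thaliana allele than any standard plant, and the mean ratio went from -2.69 ± 1.01 (SD, n = 3) to 2.68 ± 2.01 in cold and 2.88 ± 2.13 in dehydration. NIT2 has close copies next to it in the genome, NIT1 and NIT3, and no source used here says how reads were divided among such copies.

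**Figure D1:**
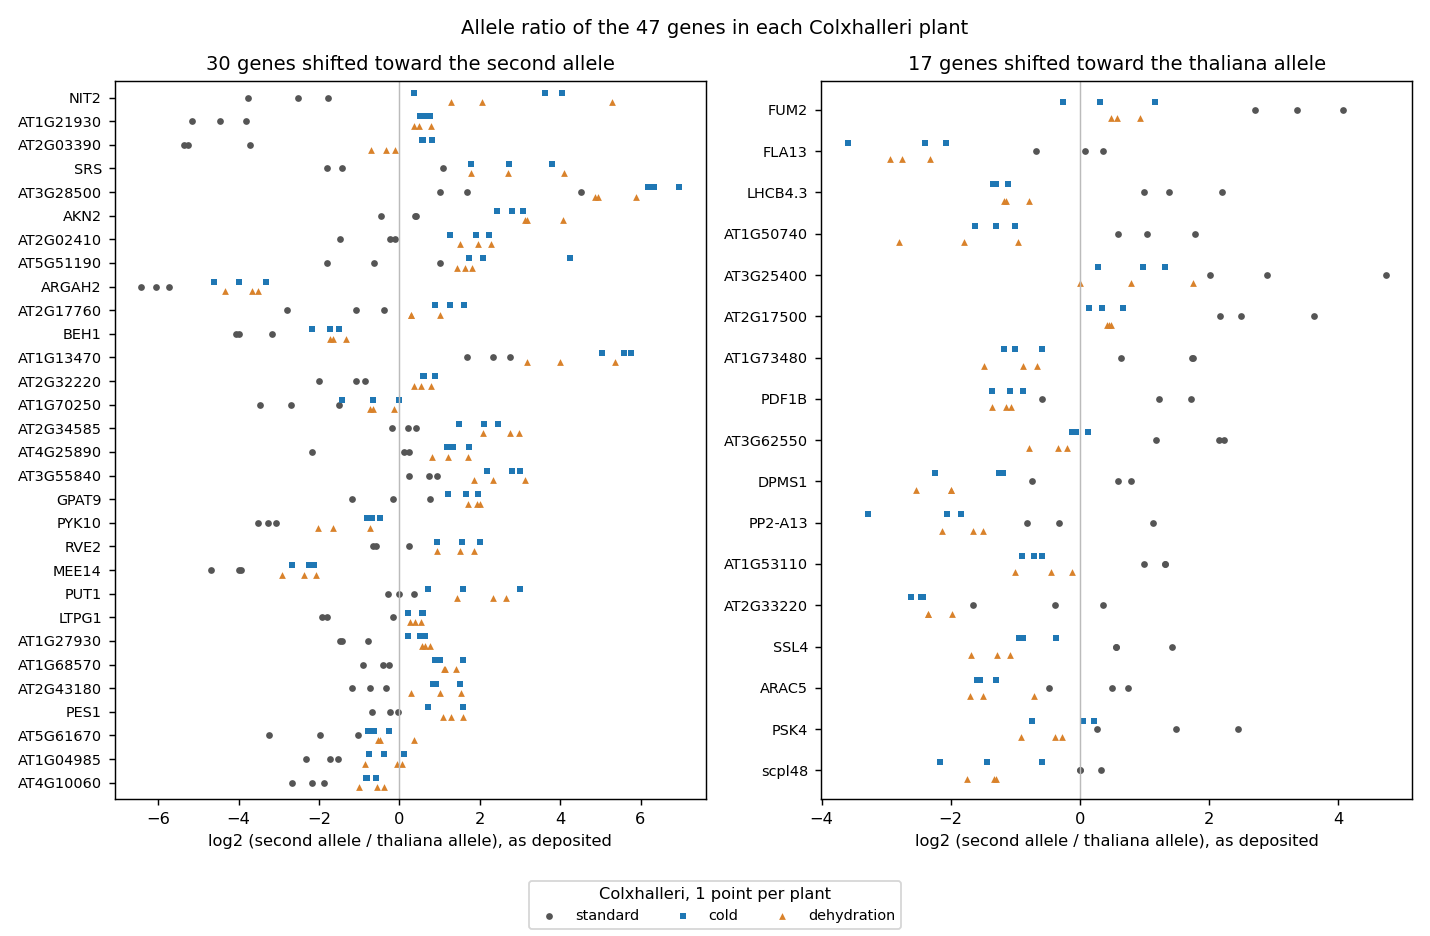
Log2 ratio, second over thaliana (x axis, as deposited), for each of the 47 genes (rows) in each Colxhalleri plant, 1 point per plant, with standard plants as circles, cold plants as squares and dehydrated plants as triangles. By the rule the treated points lie to the right of the standard points in the 30 genes on the left and to the left of them in the 17 genes on the right, and the standard points lie at both sides of 0, from a mean of -6.07 (ARGAH2) to 3.39 (FUM2).

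SRS, AT3G28500, AT4G25890 and AT2G32220 are annotated to translation and moved toward the second allele. SRS had second-allele values of 167, 2 and 1 in Colxhalleri standard plants, 68, 19 and 23 in cold and 75, 203 and 161 in dehydration. Its thaliana values were 78, 7 and 6, then 4, 2 and 6, then 21, 11 and 24. Standard replicate 1 was high for both alleles, and the gene no longer met the rule without that plant.

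AT3G28500, a 60S acidic ribosomal protein gene, was almost silent on its thaliana side in every Colxhalleri plant, with values from 0 to 5. Values of its second allele were 68, 1 and 15 in standard plants, 749, 80 and 72 in cold and 28, 58 and 30 in dehydration. With the thaliana allele this low, the ratio depends on the added 1. In dehydration the second-allele values overlapped the standard ones. The mean log2 change there was 1.53 for the second allele and -1.30 for the thaliana allele, a matter of few units. AT3G28500 was also lost without standard replicate 1. AT4G25890, of the same family, had thaliana values of 216, 26 and 12 in standard plants, 17, 20 and 24 in cold and 46, 19 and 36 in dehydration, and its ratio moved by 2.03 ± 0.80 (SE) and 1.85 ± 0.83. It was lost without standard replicate 2. AT2G32220, a ribosomal L27e family gene, moved by 2.01 ± 0.36 and 1.87 ± 0.37 and met the rule whichever plant was left out. Cytosolic ribosomal proteins belong to families of close copies, so these values are uncertain in the way given for NIT2. PDF1B, a peptide deformylase that trims new chloroplast proteins, went the other way, by -1.90 ± 0.72 in cold and -1.97 ± 0.71 in dehydration, and was lost without standard replicate 3.

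ARGAH2 and AKN2, of nitrogen and sulfur metabolism, also moved toward the second allele. ARGAH2, arginase 2, which breaks down arginine and is induced by jasmonate, kept a strong thaliana excess throughout. Second-allele values were 4, 5 and 3 in Colxhalleri standard plants, 18, 20 and 29 in cold and 10, 18 and 10 in dehydration. The thaliana allele was at 266, 401 and 341, then 190, 335 and 736, then 223, 241 and 125. Treated plants overlapped standard plants for the thaliana allele and not for the second, and the mean ratio went from -6.07 ± 0.34 (SD, n = 3) to -3.98 ± 0.64 and -3.85 ± 0.44.

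AKN2, an adenosine-5′-phosphosulfate kinase that makes the sulfate donor for glucosinolates, had thaliana values of 180, 10 and 2 in Colxhalleri standard plants, 3, 2 and 4 in cold and 12, 32 and 23 in dehydration. Its second-allele values were 235, 7 and 3, then 33, 20 and 26, then 217, 286 and 215. Treated plants carried mostly the second allele while standard plants were near balance, with standard replicate 1 far above the others in both alleles. AKN2 was lost without that plant. The remaining transport and metabolism genes in this direction were PUT1, a polyamine uptake transporter, AT1G68570, annotated as the nitrate transporter family gene NPF3.1, and AT2G43180, a phosphoenolpyruvate carboxylase family gene. These and the other members outside the rule for named genes were singled out by annotation after their values were seen.

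FUM2 had the largest shift toward the thaliana allele, taking the smaller shift of each gene. It encodes the cytosolic fumarase, which makes fumarate, a carbon store of *A. thaliana* leaves, and is known for its part in cold acclimation. In Colxhalleri plants the thaliana allele was at 9, 2 and 6 in standard plants, 41, 83 and 89 in cold and 52, 127 and 99 in dehydration. The second allele was at 65, 30 and 117, then 51, 188 and 74, then 100, 190 and 139. The thaliana allele was higher in every treated plant than in any standard plant, and the second allele overlapped. The mean ratio went from 3.39 ± 0.68 (SD, n = 3) to 0.41 ± 0.72 and 0.66 ± 0.23, close to balance.

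Chloroplast and energy genes lay in both directions. LHCB4.3, a minor antenna protein of photosystem II, had thaliana values of 26, 9 and 4 in Colxhalleri standard plants, 38, 70 and 53 in cold and 21, 26 and 49 in dehydration. The second allele was at 123, 19 and 12, then 17, 27 and 21, then 9, 11 and 28. Its ratio changed sign in every treated plant, from a mean of 1.53 ± 0.61 (SD, n = 3) to -1.25 ± 0.12 and -1.03 ± 0.21, and it met the rule whichever plant was left out. AT2G33220, a GRIM-19 subunit gene of mitochondrial complex I, moved by -1.94 ± 0.59 (SE) in cold and -1.67 ± 0.60 in dehydration. AT5G61670, which encodes an orange protein of plastids, and PES1, a phytyl ester synthase that stores products of chlorophyll breakdown, moved the other way. The shifts were 1.54 ± 0.66 and 1.87 ± 0.70 for AT5G61670 and 1.61 ± 0.35 and 1.63 ± 0.24 for PES1.

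Signalling and hormone genes were few and divided. AT5G51190, the ethylene response factor gene ERF105, had second-allele values of 33, 1 and 8 in Colxhalleri standard plants, 56, 18 and 16 in cold and 49, 37 and 58 in dehydration. Its thaliana values were 16, 6 and 13, then 16, 0 and 3, then 15, 13 and 16. The shift was 3.18 ± 1.13 (SE) in cold and 2.11 ± 0.82 in dehydration, and the gene was lost without standard replicate 1 or 2 or cold replicate 1. BEH1, a brassinosteroid transcription factor of the BES1 and BZR1 family, moved by 1.94 ± 0.35 and 2.17 ± 0.31. RVE2, a clock-related MYB-like transcription factor also called CIR1, moved by 1.83 ± 0.42 and 1.77 ± 0.39. In the other direction were AT2G17500, the auxin carrier-like gene PILS5, PSK4, which encodes a phytosulfokine peptide precursor, and ARAC5, a small GTPase of the ROP family.

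AT2G17500 had the smallest SD of any member in dehydrated plants. The second allele was at 61, 26 and 36 in Colxhalleri standard plants, 31, 32 and 56 in cold and 13, 14 and 11 in dehydration. The thaliana allele was at 10, 5 and 2, then 28, 25 and 35, then 9, 10 and 8. In cold the thaliana allele was higher than in every standard plant, while in dehydration the second allele was lower than in every standard plant, and the mean ratio ended at 0.38 ± 0.26 (SD, n = 3) and 0.45 ± 0.04, from 2.76 ± 0.76.

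Genes of lipids, cell surface and glycosylation included FLA13, LTPG1, GPAT9, DPMS1 and AT1G73480. FLA13, a fasciclin-like arabinogalactan protein of the cell surface, had second-allele values of 303, 41 and 427 in Colxhalleri standard plants, 68, 24 and 10 in cold and 27, 13 and 35 in dehydration. Its thaliana values overlapped throughout, at 285, 66 and 334, then 289, 301 and 57, then 214, 69 and 241. The mean log2 value of the second allele differed by -2.72 in cold and -2.87 in dehydration, and that of the thaliana allele by -0.11 and -0.27. DPMS1, a dolichol phosphate mannose synthase for protein glycosylation, had second-allele values of 58, 11 and 20, then 11, 7 and 6, then 9, 10 and 4, and was lost without cold replicate 1 or standard replicate 1.

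AT1G73480, an alpha/beta-hydrolase gene, had thaliana values of 19, 5 and 12 in Colxhalleri standard plants, 29, 44 and 17 in cold and 84, 111 and 73 in dehydration. Its second allele was at 30, 19 and 43, then 14, 19 and 11, then 45, 39 and 46. Dehydrated plants had more of the thaliana allele than all others, and the ratio moved from 1.38 ± 0.64 (SD, n = 3) to -0.92 ± 0.30 and -1.01 ± 0.43. LTPG1, a lipid transfer protein of the cuticle, and AT1G27930, annotated as a glucuronoxylan 4-O-methyltransferase-like gene, lie 7.51 kb apart on chromosome 1 and both moved toward the second allele. LTPG1 moved by 1.75 ± 0.58 (SE) and 1.70 ± 0.58, and AT1G27930 by 1.69 ± 0.26 and 1.89 ± 0.23. GPAT9, an acyltransferase of glycerolipid synthesis, moved by 1.80 ± 0.60 and 2.07 ± 0.57.

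Defence-related and stress-related genes included PYK10 and AT3G62550. PYK10 is a beta-glucosidase of endoplasmic reticulum bodies that acts on indole glucosinolates and is abundant in roots. Its second allele was at 6, 24 and 29 in Colxhalleri standard plants, 413, 75 and 69 in cold and 9, 275 and 5 in dehydration, and its thaliana allele at 66, 209 and 341, then 660, 131 and 97, then 40, 458 and 18. Totals thus differed widely between plants of a group. The ratio was -3.28 ± 0.22 (SD, n = 3) in standard plants, -0.65 ± 0.16 in cold and -1.48 ± 0.67 in dehydration, where replicate 2, with the highest total, had the highest ratio. PYK10 was lost without that plant. Root marker sums were 2, 9 and 7 in the standard plants (8 of 9 markers at 0 in all 3), 92, 1 and 3 in the cold plants and 1, 13 and 3 in the dehydrated plants, in the same order. In cold and in dehydration, the plant with the highest root marker sum also had the most PYK10. In standard plants it did not: replicate 2 had the highest sum and replicate 3 the most PYK10. The part of root tissue in the ratio was not tested. PYK10 also has close tandem copies.

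AT3G62550, an adenine nucleotide alpha hydrolase-like gene of the universal stress protein type, had thaliana values of 9, 25 and 33 in Colxhalleri standard plants, 305, 300 and 317 in cold and 187, 80 and 128 in dehydration. Its second allele was at 46, 58 and 151, then 332, 277 and 306, then 163, 63 and 74. Both alleles were higher in all cold plants than in any standard plant, the thaliana allele more so, and the mean ratio ended near 0 at -0.01 ± 0.12 (SD, n = 3). MEE14, a gene needed in early embryo development, had second-allele values of 21, 6 and 30, then 99, 205 and 278, then 52, 51 and 58, so that every treated plant was above every standard plant, while its thaliana values overlapped.

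AT2G02410, AT2G17760, AT1G50740 and AT3G25400 complete the genes with the largest shifts. AT2G02410, a yacP-like NYN domain gene, moved by 2.40 ± 0.53 (SE) in cold and 2.52 ± 0.49 in dehydration. AT2G17760, an aspartyl protease family gene, moved by 2.66 ± 0.75 and 1.95 ± 0.76 and was lost without standard replicate 3. AT1G50740, a transmembrane 14C family gene, moved by -2.44 ± 0.39 and -2.99 ± 0.64, and AT3G25400, a dCTP pyrophosphatase-like gene, by -2.36 ± 0.86 and -2.38 ± 0.95. The other members were AT1G13470, AT1G70250, AT2G34585, AT3G55840, AT1G53110, PP2-A13 (a phloem lectin), SSL4 and the 3 nearest the threshold.

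Those 3 were scpl48 (-1.503 in cold and -1.56 in dehydration), AT4G10060 (1.503 and 1.60) and AT1G04985 (1.52 and 1.58). Just outside were AT1G01725 (-1.499 in cold and -1.84 in dehydration), AT1G20410 (-1.498 and -1.5) and AT4G17070 (1.49 and 1.84), each short of the threshold in cold. Genes on either side of the threshold were therefore nearly alike in their shifts.

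Which allele moved differed between genes and between the treatments. Counting a mean change of at least 1 on the log2 scale, in cold the gaining allele alone was higher in 11 of the 30 genes that moved toward the second allele and the losing allele alone was lower in 9, with both in opposite directions in 4. In dehydration these counts were 17, 7 and 3. Among the 17 genes that moved toward the thaliana allele, the gaining allele alone was higher in 11 in cold and in 6 in dehydration, and the losing allele alone was lower in 4 and in 7. Gains of the thaliana allele were thus the commoner form in cold and losses of the second allele about as common in dehydration.

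**Figure D2:**
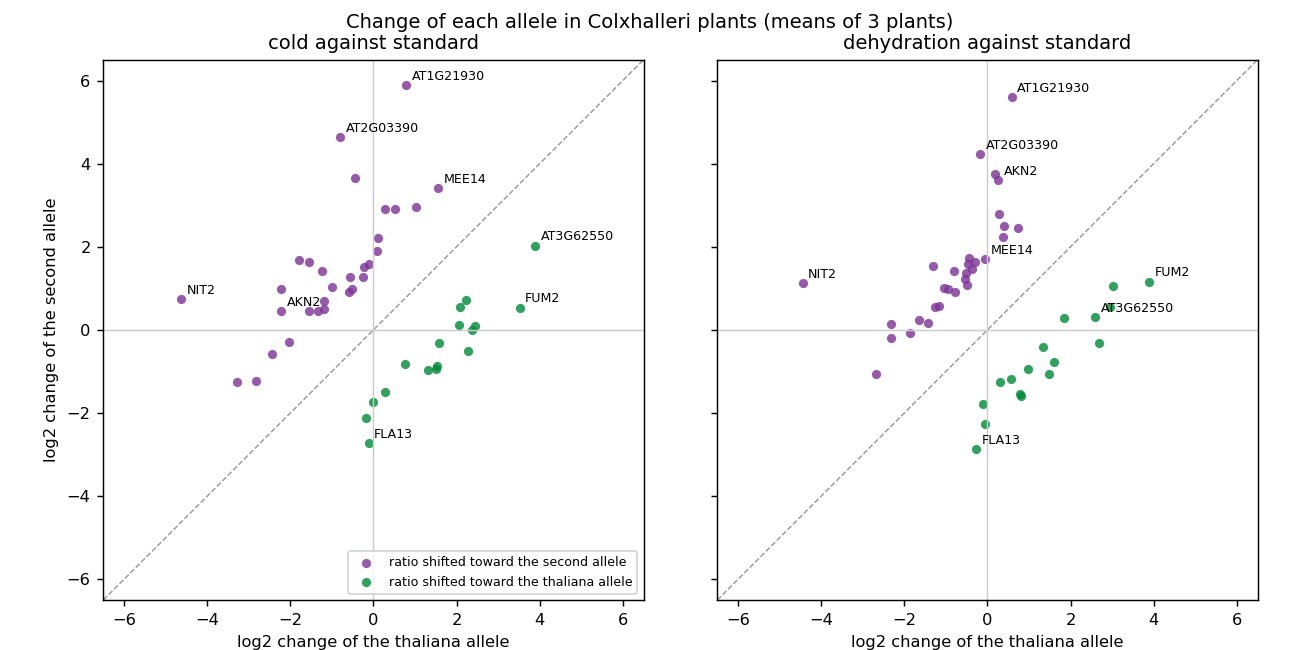
Mean log2 change of the thaliana allele (x axis) against that of the second allele (y axis) in Colxhalleri plants, cold on the left and dehydration on the right, 1 point per gene (means of 3 plants a group), with genes that moved toward the second allele in purple and toward the thaliana allele in green. Points above the dashed line of equal change gained on the second-allele side, and NIT2 lies far to the left (-4.63 and -4.44 for its thaliana allele) while AT1G21930 lies high (5.89 and 5.60 for its second allele).

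The move was as often away from balance as toward it. In standard plants the thaliana allele led by 2-fold or more in 15 of the 30 genes whose treated plants lay toward the second allele. The second allele led by 2-fold or more in 9 of the 17 genes that moved toward the thaliana allele. By any amount, the second allele led in 6 of the 30 and in 14 of the 17. The rule used these standard ratios, so the side on which they lay is partly set by it. No share over all 7657 genes was computed beside the counts of this paragraph. Under both treatments the ratio came closer to equal alleles in 14 of the 30 and in 8 of the 17, and went farther from it in 15 and in 8. Examples of the first are AT2G03390, AT1G21930, FUM2 and AT3G62550, and of the second AKN2, FLA13 and AT3G28500.

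Spread between plants and single plants both bear on these genes. The SD of the ratio over the 3 standard plants had a median of 0.61 over the members and 0.33 over the 7657 genes. Standard replicate 1 held the highest allele sum of its group in 21 of the 47 members (44.7%), against 27.4% of the 7657 genes. Leaving out each Colxhalleri plant in turn, 19 of the 47 met the rule every time, 10 of the 30 and 9 of the 17. Besides genes named above with that property, they were AT1G21930, AT1G27930, AT1G50740, AT1G53110, AT1G73480, AT2G02410, AT2G03390, MEE14, AT2G17500, AT2G34585, AT3G25400, NIT2, AT3G62550, ARGAH2, RVE2, FLA13 and FUM2. Without standard replicate 1, 110 genes met the rule, 37 of them members, and without standard replicate 3, 72 did, 36 of them members, so which genes make up the set depends on those plants.

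The ColxMN47 plants gave the same measure in plants the rule had not used. Of the 47 members, 36 reached the allele sum minimum in all 3 ColxMN47 groups, and 5 of these 36 (13.9%) met the whole rule there in the same direction, against 41 of 7725 genes (0.531%). They were AT2G03390, PYK10 and AT4G25890 among 23 members that had moved toward the second allele (13%, background 0.142%), and AT1G73480 and DPMS1 among 13 that had moved toward the thaliana allele (15.4%, background 0.388%). None met it in the opposite direction.

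AT2G03390 was the clearest of these. In ColxMN47 plants the second allele stood at 0, 1 and 0 in standard plants, 52, 60 and 51 in cold and 35, 12 and 49 in dehydration. The thaliana allele was at 21, 86 and 81, then 71, 121 and 87, then 66, 159 and 74. As in the Colxhalleri plants, the second allele was near 0 in every standard plant and present in every treated plant. The ratio moved by 4.69 ± 0.84 (limma SE) in cold, with an adjusted p of 0.117, and by 3.72 ± 0.84 in dehydration, with an adjusted p of 0.151. With the second allele at or near 0 in the standard plants, the size of these shifts depends on the added 1. With 0.5 taken off each allele the cold shift was 5.47.

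AT1G73480 had ColxMN47 ratios of 1.62 ± 0.54 (SD, n = 3) in standard plants, -0.63 ± 0.25 in cold and -0.67 ± 0.94 in dehydration, with all treated plants below all standard plants. DPMS1 went from -0.27 ± 0.51 to -2.27 ± 0.21 and -2.17 ± 0.35. PYK10 went from -3.10 ± 1.65 to -0.79 ± 0.42 and -0.14 ± 0.48, and AT4G25890 from -0.66 ± 0.59 to 1.21 ± 0.20 and 1.30 ± 0.91. The limma adjusted p-values of these 4 genes lay between 0.15 and 0.297. The 9 root markers of ColxMN47 plants summed to 2, 6 and 2 in standard, 4, 9 and 6 in cold and 15, 17 and 64 in dehydration, and dehydration replicate 3, with the highest sum, had PYK10 values of 1621 and 1454 for the thaliana and second alleles.

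**Figure D3:**
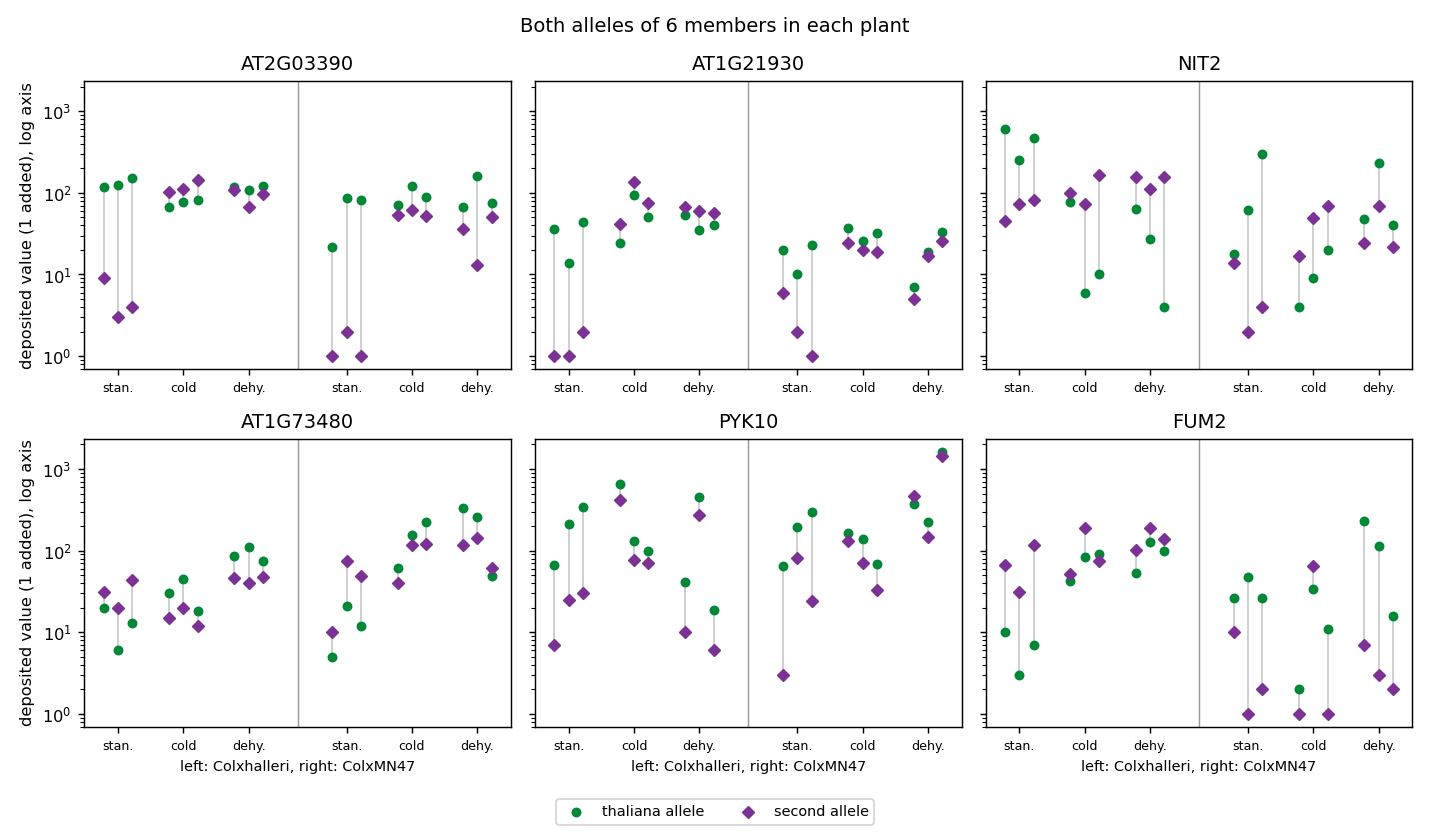
Deposited values of the thaliana allele (circles) and the second allele (diamonds) of 6 members in each plant, on a log axis with the added 1 kept, Colxhalleri plants left of the line and ColxMN47 plants right of it. A grey line joins the alleles of a plant. AT2G03390 shows a low second allele in the standard plants of both hybrids and a second allele near the thaliana allele in most treated plants, while FUM2 keeps a low second allele in most ColxMN47 plants.

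Most of the 36 members moved the same way in ColxMN47 plants. In cold, 28 of 36 (77.8%) moved in their Colxhalleri direction, with a median of 0.67 on the log2 scale. In dehydration 27 of 36 (75%) did, with a median of 0.78. Over the 7725 genes the median shift was -0.05 in cold, with 45.4% toward the second allele, and -0.24 in dehydration, with 29.1%. ColxMN47 dehydration replicate 2, with its high thaliana share, is in that last value. By direction, 18 of 23 and 10 of 13 moved the same way in cold (medians 0.63 and -0.73), and 15 of 23 and 12 of 13 in dehydration (medians 0.46 and -1.16). The median absolute shift of the 36 was 0.75 in cold and 0.79 in dehydration, against 0.31 and 0.36 over the 7725 genes. Members also varied more between ColxMN47 plants of a group. Over the 47 members the median SD of the ratio was 0.61 in standard, 0.55 in cold and 0.73 in dehydration. It was 0.33, 0.26 and 0.50 over the 7657 genes. Neither of these 2 sets was filtered on ColxMN47 sums, as the 36 members and the 7725 genes were. The part of this spread in the larger shifts, and in the count meeting the rule, was not tested.

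**Figure D4:**
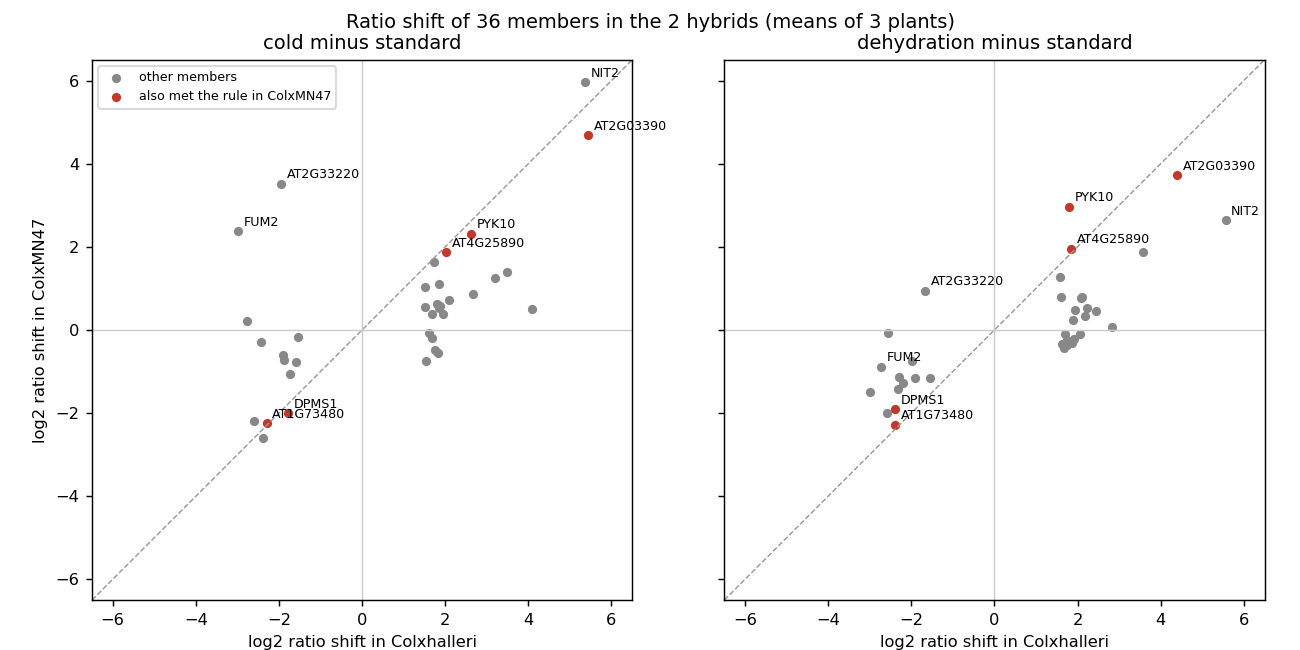
Log2 ratio shift in Colxhalleri plants (x axis) against that in ColxMN47 plants (y axis) for the 36 members with the allele sum minimum in both, cold on the left and dehydration on the right, 1 point per gene (means of 3 plants a group). The dashed line marks equal shifts, and red points are the 5 genes that met the rule in both hybrids. In cold 28 of the 36 and in dehydration 27 lie on the same side of 0 in both hybrids, and FUM2 and AT2G33220 lie on opposite sides in cold. The ratio of these 2 genes varied widely between cold ColxMN47 plants (SD 2.20 and 3.72).

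No gene passed the limma test of the allele ratio in ColxMN47 plants. Of 11697 genes tested, 0 (0%) were called in cold and 0 (0%) in dehydration at an adjusted p below 0.05, and so 0 of the 47 members. At an unadjusted p below 0.05, 15 of 47 members (31.9%) passed in cold against 9.79% of all genes (1145), and 16 (34%) in dehydration against 13.4% (1565). Restricting the test to genes with a mean allele sum of at least 50 called 12 genes in cold, AT2G03390 among them, and 3 in dehydration.

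NIT2 and AT1G21930 also moved far in ColxMN47 plants. NIT2 had thaliana values of 17, 60 and 300 in standard plants, 3, 8 and 19 in cold and 47, 231 and 39 in dehydration, with second-allele values of 13, 1 and 3, then 16, 48 and 69, then 23, 69 and 21. All cold plants had more of the second allele than of the thaliana allele, and no other ColxMN47 plant did. Its shift was 5.96 ± 1.22 (SE) in cold, with a limma adjusted p of 0.177, and 2.65 ± 1.22 in dehydration, with 0.386. Its cold ratio was called by limma under at least 1 alternative setting, though not as reported. Without ColxMN47 standard replicate 1, NIT2 met the whole rule in ColxMN47 plants. AT1G21930 moved by 2.28 ± 0.62 in cold and 2.53 ± 0.62 in dehydration, with adjusted p of 0.244 and 0.177, and fell short of the allele sum minimum there.

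FUM2 differed between the hybrids from the start. In ColxMN47 standard plants the thaliana allele led, at 25, 46 and 25 against second-allele values of 9, 0 and 1, whereas in Colxhalleri standard plants the second allele led. After dehydration the thaliana allele stood at 228, 113 and 15 and the second allele at 6, 2 and 1, so the ratio stayed on the thaliana side, at -4.43 ± 1.24 (SD, n = 3). FLA13 had shifts of -2.19 ± 0.74 (limma SE) in cold and -1.999 ± 0.74 in dehydration in ColxMN47 plants, with adjusted p of 0.335 and 0.29, and 1 standard plant lay within the range of the dehydrated ones. LHCB4.3 stayed near balance there, between -0.46 and -0.19 in its group means.

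The total level, the sum of both alleles, was a separate readout in the ColxMN47 plants. In cold, 116 of 13058 genes (0.888%) were called by limma, 83 higher (0.636%) and 33 lower (0.253%), and 3 of the 47 members (6.38%) were among them. MEE14 rose by 3.64 ± 0.66 (SE, adjusted p 0.013). Its thaliana allele was at 29, 151 and 138 in standard plants and at 1590, 1071 and 561 in cold, and its second allele at 11, 30 and 22 and at 832, 861 and 181. AT3G62550 rose by 2.90 ± 0.55 (adjusted p 0.0178), its sum going from 92.0 ± 56.0 (SD, n = 3) to 725 ± 333. AKN2 fell by 4.93 ± 1.03 on the log2 scale (adjusted p 0.0308), with thaliana values of 130, 143 and 93 in standard plants and 3, 2 and 1 in cold, and second-allele values of 100, 110 and 74 and of 4, 2 and 6. Each of these 3 genes had its cold plants wholly above or below its standard plants.

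These total calls rested on few plants. MEE14 and AT3G62550 lost the call without cold replicate 1, cold replicate 2 or standard replicate 1 and in a fit of the 6 plants compared, with adjusted p up to 0.0861 and 0.121, and AKN2 lost it when any of the 6 plants was left out, with adjusted p up to 0.124. In dehydration 55 of 13058 genes (0.421%) were called, 42 higher (0.322%) and 13 lower (0.0996%), and 0 members were, while 11 members (23.4%) had an unadjusted p below 0.05 against 18.5% of all genes.

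The total of members that had moved toward the thaliana allele had a median log2 change of 1.14 in cold and 1.15 in dehydration in ColxMN47 plants. Those that had moved toward the second allele had medians of 0.20 and 0.44, and all genes tested had 0.06 and 0.04. PP2-A13 (2.93 ± 0.75, SE, adjusted p 0.0647), PSK4 (2.69 ± 0.69, adjusted p 0.0652) and AT1G53110 (2.50 ± 0.76, adjusted p 0.118) had the highest values in cold short of a limma call. These medians are descriptions, since no test was made of the lists.

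The members were spread over all 5 chromosomes. Chromosomes 1 to 5 held 15, 10, 11, 4 and 7 of them, which was 0.761%, 0.873%, 0.706%, 0.352% and 0.38% of the genes with the allele sum minimum. AT1G27930 and LTPG1 were the closest pair. FUM2 and AT5G51190 lay 66.5 kb apart on chromosome 5 and AT2G17500 and AT2G17760 104 kb apart on chromosome 2, and each of these pairs moved in opposite directions.

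No member belonged to the gene lists used to describe the treatments. Among genes with the allele sum minimum, the lists held 12 clock genes, 5 cold regulators and targets, 16 genes of abscisic acid and dehydration, 6 of jasmonate, touch and wounding, 15 of photosynthesis and 3 reference genes, and 0 of each met the rule. Over all 7657 genes the share was 0.614%, so lists this short would mostly hold 0 and these counts say little about the members. The heat shock, root and floral lists had no gene at that level. Several members described above relate to such pathways but were not on the lists, among them RVE2, PYK10, LHCB4.3 and ARGAH2. The absence of members thus holds for the listed genes and not for the pathways.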

How the data were processed

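RNA-seq of 18 plants in 6 groups of 3, by hybrid and treatment in the labels, was used. The deposited files hold 1 score for each allele of a gene, per the file headers. Judged by its values, the score is a whole number scaled to a near-equal library total with 1 added. TopHat2, SAMtools, DESeq2 and TAIR10 are named in the submitters' processing notes without versions or roles, and the method of allele assignment is not stated in them. The true depth of most libraries is unknown, so no counting interval is given. Replicates were prepared a week apart, per the labels' protocols.

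The members and gene lists were chosen with earlier results of these data known. Ratios were log2 of the deposited alleles. Because the score is not a count, ColxMN47 changes were tested with limma 3.58.1 in R 4.3.3 (eBayes, trend and robust), 2-sided, adjusted by Benjamini-Hochberg over all genes. The ratio fit used the 9 ColxMN47 plants and genes with a mean allele sum of at least 10. Totals used all 18 plants, log2 of the TMM-scaled sum plus 2 (trims of 30% and 5%) and genes with at least 10 in 3 libraries. A fold change on that scale understates the change of low genes. The fits were tested on simulated data. Named genes were, in each direction, the 10 with the largest smaller shift, members on a list, members called or meeting the rule in ColxMN47, and 3 on each side of the threshold. Symbols, coordinates and promoters came from RefSeq TAIR10.1, which matched 16404 of 16419 genes and left 15 unmatched. The deposited files carry no coordinates. Python 3.11.15, pandas 2.3.3 and matplotlib 3.10.9 were used. Alternatives were other thresholds and filters, 0.5 off each allele, centring, other scaling, a replicate block, a fit of the plants compared, and leaving out plants.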

Additional observations from a re-analysis of the deposited data

Results flagged for a closer look

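In 4 members all cold ColxMN47 plants lay on one side of their standard mean and all cold Colxhalleri plants on the other side of theirs, and in AT5G61670 the dehydrated plants did so too. These differences between the hybrids were not tested. In cold, the LTPG1 ratio shifted by -0.48 in ColxMN47 plants and by 1.75 in Colxhalleri plants. AT2G43180 shifted by -0.56 and 1.82 in cold. FUM2 shifted by 2.37 in ColxMN47 plants and by -2.98 in Colxhalleri plants in cold. Cold ColxMN47 plants differed widely in FUM2, with a ratio of -1.18 ± 2.20 (SD, n = 3) and a second allele of 21.3 ± 37.0. The limma adjusted p of that ColxMN47 shift was 0.578, and its size depends on the added 1. AT5G61670 shifted by -0.75 and 1.54 in cold, and by -0.31 and 1.87 in dehydration.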

How the results depend on the processing

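The number of genes meeting the rule in Colxhalleri plants was 106 at the lower threshold tried, 16 at a threshold of 2, 80 with an allele sum of 10, 23 with an allele sum of 50, and 103 without cold and standard replicate 1 together, the last chosen after the data were seen; leaving out 1 plant gave 46 to 110. With 0.5 taken off each allele, 65 genes met the rule in Colxhalleri plants, 34 toward the second allele and 31 toward the thaliana allele. Members meeting the rule in ColxMN47 plants ranged from 5 to 7 without 1 plant, and the share over all genes from 0.542% to 0.968%. Without ColxMN47 standard replicate 1, 4 of the 5 genes named above still met it and DPMS1 did not. The median ColxMN47 cold shift of the 36 members ranged from 0.61 to 0.86 without 1 plant. Ratio calls in ColxMN47 cold were 12 with a mean sum of 50 (1 member), 4 with no filter, 2 after centring and 3 without dehydration replicate 2 and standard replicate 1 (1 member), and 0 to 3 without 1 plant (0 to 1 members). In dehydration they were 3 with a mean sum of 50, 12 with no filter, 1 with 0.5 off each allele, and 0 to 7 without 1 plant. Total calls in cold were 12 in a fit of the 6 plants compared (1 member) and 56 without dehydration replicate 2 and standard replicate 1 (0 members). They were 14 to 80 without 1 plant (0 to 2 members). Scaling as deposited called 139 of 13058 genes in cold, 5 of them members. In dehydration total calls were 0 in the fit of 6 plants, 4 without those 2 plants and 0 to 337 without 1 plant (0 to 3 members). Scaling as deposited called 60 of 13058 genes in dehydration, 1 of them a member. A replicate block gave 75 total calls in cold and 22 in dehydration and changed no count of called members; deviations of same-numbered plants correlated between -0.184 and 0.294, so the numbers were not taken to pair plants. The causes were not tested. Scaling before deposit, the added 1 and 3 plants a group limit the ratios of low genes most.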

Other observations

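Single ColxMN47 plants stood apart in a few members, a pattern chosen after the values were seen. ARGAH2 had thaliana values of 0, 167 and 693 in cold and 186, 685 and 2 in dehydration, beside second-allele values of 38, 27 and 42 and of 22, 50 and 91. AT2G33220 had thaliana values of 3, 114 and 1 in cold against 54, 59 and 89 in standard plants. RVE2 had a thaliana value of 242 in dehydration replicate 2 and of 4 and 2 in the other dehydrated plants, with second-allele values of 12, 18 and 11 in the same order.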
